A study of Homo sapiens with 4 samples.

Results

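Transcripts of 9 enzymes that supply or clear deoxynucleotides were measured in TE5 cells, an established line of esophageal squamous cell carcinoma, with and without knockdown of NUP153, which codes for a nuclear pore basket protein. The 9 genes were chosen by name (RRM1, RRM2, RRM2B, TYMS, TK1, DUT, DCTPP1, DTYMK and SAMHD1). All 9 had a row among the 56657 of the count table, and all 9 were among the 16817 genes with enough reads to be tested. The control group carried a control short hairpin RNA (shControl, 2 libraries, genotype labelled WT) and the knockdown group a hairpin RNA against NUP153 (shNUP153, 2 libraries). Both groups received lentivirus, puromycin selection and growth for 7 days before RNA was taken. The labels do not say that the libraries of a group came from separate infections or cultures, so the p-values speak to the spread among these 4 libraries, which may be technical. One knockdown library is described with the suffix g1 and the other with g2, and the control descriptions have no g. The sources used here do not say what g marks or if the knockdown libraries share 1 hairpin sequence. If each has its own, the spread within shNUP153 also holds the difference between hairpins. Off-target effects of a hairpin cannot be told apart from loss of NUP153.

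DNA synthesis needs deoxynucleoside triphosphates in balanced amounts. Ribonucleotide reductase makes deoxynucleotides from ribonucleotides, thymidylate comes either from deoxyuridylate by thymidylate synthase or from salvaged thymidine by thymidine kinase, and other enzymes hydrolyse surplus or unwanted deoxynucleotides. In dividing cells most genes of this supply are transcribed with the cell cycle and peak around S phase, under E2F factors and other cell-cycle regulators, and tumour cells depend on them for replication.

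All 9 genes fell in shNUP153 by edgeR's quasi-likelihood test (adjusted p under 0.05). Of all tested genes 17.4% were called lower and 15.0% higher, 32.4% in all. SAMHD1, a hydrolase of deoxynucleoside triphosphates, fell most (2.31-fold), followed by the small ribonucleotide reductase subunit gene RRM2 (1.95-fold), the dUTPase gene DUT (1.60-fold) and the dCTP pyrophosphatase gene DCTPP1 (1.54-fold). The thymidylate kinase gene DTYMK fell least (1.18-fold). The median log2 fold change of the 9 was −0.48, against 0.01 over all tested genes. In each of the 9 genes both shNUP153 libraries were below both shControl libraries, an order found for 32.2% of all tested genes.

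The promoters of 4 of the 9 members are shown, which span the 3 roles. The RefSeq promoter table (GRCh38.p14) matched 8 of the 9 members by symbol, with 13 start sites in all. RRM2B had no entry. Each line gives the 150 bases before a start site on the gene's strand, 5′ to 3′, with motif matches in capitals: CCAAT boxes (CCAAT, or ATTGG on the opposite strand), E2F sites (TTTCCCGC, TTTCGCGC, TTTGCCGC or TTTGGCGC, or their reverse complements such as GCGGGAAA) and cell-cycle homology elements (TTTGAA, or TTCAAA on the opposite strand).
RRM2, chr2:10122589-10122738, plus strand: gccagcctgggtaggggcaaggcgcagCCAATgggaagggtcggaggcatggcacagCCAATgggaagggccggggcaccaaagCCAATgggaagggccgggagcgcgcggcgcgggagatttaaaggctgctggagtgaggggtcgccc
DUT, chr15:48332047-48332196, plus strand: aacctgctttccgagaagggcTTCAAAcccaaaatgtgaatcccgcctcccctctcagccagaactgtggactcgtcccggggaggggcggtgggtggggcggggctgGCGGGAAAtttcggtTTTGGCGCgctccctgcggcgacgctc
TK1, chr17:78187053-78187202, minus strand: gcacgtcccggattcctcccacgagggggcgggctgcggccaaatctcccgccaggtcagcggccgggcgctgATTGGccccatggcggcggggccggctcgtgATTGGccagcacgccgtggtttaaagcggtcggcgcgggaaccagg
SAMHD1, chr20:36951709-36951858, minus strand: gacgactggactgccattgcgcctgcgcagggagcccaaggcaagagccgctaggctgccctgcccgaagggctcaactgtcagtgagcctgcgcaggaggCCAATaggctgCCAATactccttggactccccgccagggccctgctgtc

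These sequences differ in composition of motifs. In the 250 bases before this RRM2 start there were 3 CCAAT boxes, each followed by the letters gggaaggg, ending 119, 89 and 62 bases before the start. TK1 and SAMHD1 had 2 CCAAT boxes each, as did DTYMK, and RRM1 had 1. A further RRM2 start had 1 CCAAT box and a further TK1 start had 0. CCAAT was found in 32.0% of all 35116 promoter windows of that length, 2 or more in 9.53% and 3 or more in 2.93%. The DUT start shown had 2 E2F matches, whereas the other 3 DUT starts had none, and TYMS had 1. E2F matches were found in 2.79% of all windows. The element TTTGAA was present before 1 DUT start and the RRM1 start, and in 13.3% of all windows. No member window held the interferon response element searched (both strands); 3.02% of windows did. No match was found before the only DCTPP1 start listed. That window may hold coding sequence of the gene (an ATG in an open reading frame), so the absence may not describe its promoter. DCTPP1 sequence outside that window was not searched. These matches describe letters, and the table holds only the start sites RefSeq lists.

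Depth was similar in all libraries, with 22606593 to 27396268 counts. The target itself, NUP153 (ENSG00000124789), measured 148.9 and 141.6 CPM (library-size-scaled counts, with TMM factors) in shControl and 67.9 and 81.9 CPM in shNUP153. It fell 1.94-fold. Over all genes 2927 were called lower and 2521 higher, and with total-count scaling 2114 lower and 3573 higher (upper-quartile scaling 2338 and 3177). Of the squamous markers, KRT5, KRT6A, KRT17, TP63 and SOX2 were expressed (KRT5 at 24.4 CPM and TP63 at 248 CPM in shControl), while KRT14 was near absent, with 6 to 13 counts in a library. The 6 squamous markers summed to 1080 to 1110 CPM in shControl and 1560 to 1570 CPM in shNUP153, a higher sum that came from KRT17 alone (734 ± 14.9 to 1245 ± 9.56 CPM, SD, n = 2; log2 fold change 0.76, edgeR adjusted p = 9.14e-17). KRT5 (−0.68), SOX2 (−0.34) and KRT6A (−0.23) fell and TP63 (−0.08) did not pass. The KRT6A call was lost with total-count and upper-quartile scaling, with DESeq2 and without shNUP153 replicate 1 (−0.12, adjusted p = 0.461). Leukocyte markers (5 genes) summed to 0.631 to 0.863 CPM in shControl and 0.424 to 0.927 CPM in shNUP153, and PTPRC was at 0 in both shNUP153 libraries. Fibroblast markers (5 genes, DCN and LUM at 0 in all libraries) summed to 13.6 to 14.7 CPM in shControl and 17.3 to 17.4 CPM in shNUP153. Endothelial markers (4 genes) summed to 11.1 to 12.3 CPM in shControl and 24.1 to 25.2 CPM in shNUP153. Nearly all of the endothelial sum was CDH5, while PECAM1 had 0 counts in shControl and 3 and 1 in shNUP153. The part of these markers in the results below was not tested.

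**Figure D1:**
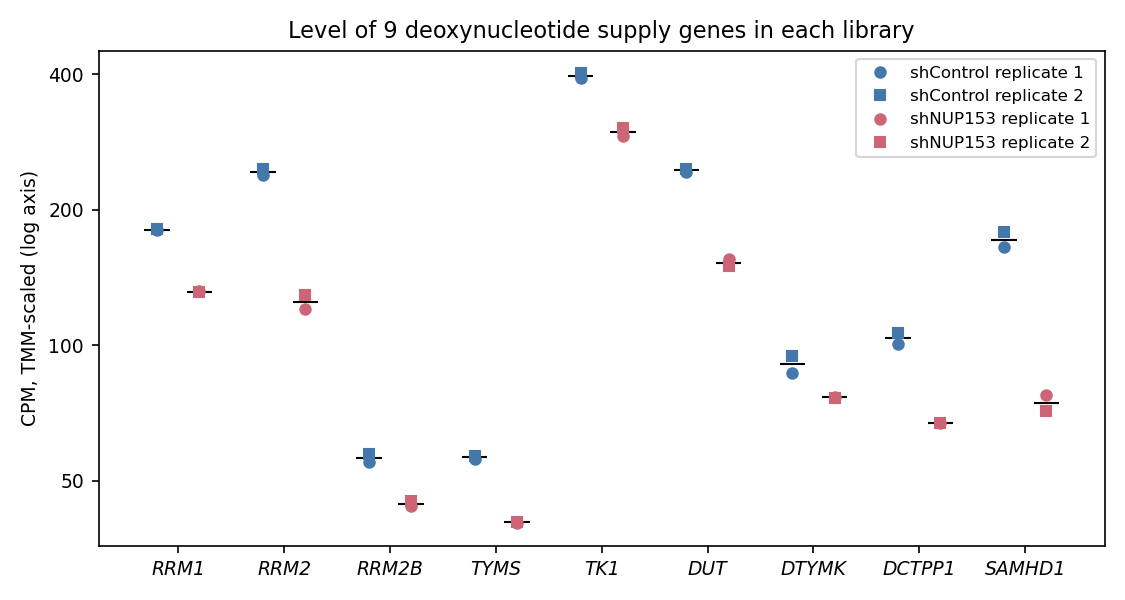
Level of each of the 9 genes in each library, in TMM-scaled CPM on a log axis; circles are replicate 1, squares replicate 2, and horizontal lines group means. For each gene both shNUP153 libraries (red) lie below both shControl libraries (blue), with the widest separation for SAMHD1 and RRM2.

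Ribonucleotide reductase is built from a large catalytic subunit, RRM1, and a small radical-carrying subunit. The small subunit is RRM2 in cycling cells or RRM2B, a p53-inducible form that also serves cells outside S phase and mitochondrial DNA. RRM1 (ENSG00000167325) measured 180.4 and 180.8 CPM in shControl and 131.6 and 131.4 CPM in shNUP153. Its replicates were nearly equal within each group and the groups stood well apart (log2 fold change −0.46, SE 0.05, edgeR adjusted p = 2.46e-09). RRM2 (ENSG00000171848) measured 238.5 and 246.6 CPM in shControl against 120.1 and 129.0 CPM in shNUP153. The closest libraries of the groups still differed by 0.89 on the log2 scale, against 0.05 within shControl and 0.10 within shNUP153 (log2 fold change −0.96, SE 0.05, adjusted p = 2.72e-17). RRM2B (ENSG00000048392) measured 55.1 and 57.2 CPM in shControl and 44.0 and 45.1 CPM in shNUP153. The RRM2B groups did not overlap, with a smaller fall than those of the other subunits (log2 fold change −0.34, SE 0.06, adjusted p = 7.90e-05).

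The balance of the subunit transcripts differed between the groups. The ratio of RRM2 to RRM1 counts was 1.32 and 1.36 in the shControl libraries and 0.912 and 0.982 in the shNUP153 libraries. The groups did not overlap in this ratio. Counts are not per length, so a ratio compares the groups and not the levels of the genes. The ratio of RRM2B to RRM2 counts was 0.231 and 0.232 in shControl and 0.366 and 0.349 in shNUP153, higher in both knockdown libraries by a mean of 0.63 on the log2 scale. The RRM2B to RRM1 ratio moved less, from 0.306 and 0.317 to 0.334 and 0.343 (0.12 on the log2 scale), also without overlap of the groups. Each ratio is taken within a library and so needs no scaling between libraries. For the 6 ratios between members that were computed, the exact two-sided permutation test gave p = 0.33, the smallest that 2 against 2 libraries allow, so none could pass a threshold of 0.05 before or after adjustment. The other 3 ratios were TK1 to TYMS (7.02 and 7.08 against 7.23 and 7.48), DUT to TYMS (4.35 and 4.34 against 3.85 and 3.69) and SAMHD1 to RRM2 (0.692 and 0.722 against 0.645 and 0.553).

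**Figure D2:**
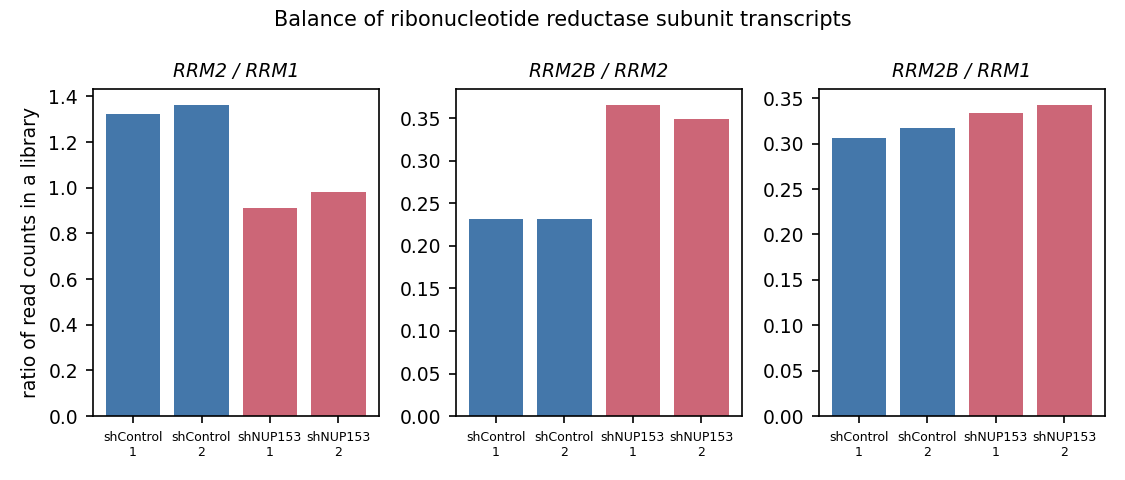
Ratio of read counts of ribonucleotide reductase subunit genes within each library, with 1 bar per library and axes starting at 0. The RRM2 to RRM1 ratio is 1.32 and 1.36 in shControl and 0.912 and 0.982 in shNUP153, and the RRM2B to RRM2 ratio is 0.231 and 0.232 in shControl and 0.366 and 0.349 in shNUP153.

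Thymidylate is made and passed on by 4 of the members. TYMS (ENSG00000176890), thymidylate synthase and a target of fluoropyrimidine drugs, measured 55.9 and 56.8 CPM in shControl and 40.3 and 40.5 CPM in shNUP153 (log2 fold change −0.48, SE 0.06, edgeR adjusted p = 3.02e-07). The replicates of TYMS differed by 0.02 on the log2 scale in shControl and by 0.01 in shNUP153. TK1 (ENSG00000167900), the cytosolic thymidine kinase of the salvage route, measured 392.3 and 401.7 CPM in shControl and 291.0 and 303.4 CPM in shNUP153. TK1 fell about as much as TYMS (log2 fold change −0.42, SE 0.04, adjusted p = 2.92e-09), and the groups did not overlap.

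DUT (ENSG00000128951) hydrolyses dUTP, which keeps uracil out of DNA and yields the deoxyuridylate that thymidylate synthase uses. It measured 242.8 and 246.4 CPM in shControl and 155.1 and 149.6 CPM in shNUP153, the largest fall among the thymidylate genes (log2 fold change −0.68, SE 0.05, edgeR adjusted p = 8.21e-14). DUT codes for nuclear and mitochondrial forms, which a count per gene does not separate. DTYMK (ENSG00000168393), which phosphorylates thymidylate from both routes, measured 86.6 and 94.6 CPM in shControl and 76.9 and 76.5 CPM in shNUP153. Its shControl libraries differed by 0.13 on the log2 scale and the closest libraries of the groups by 0.17, the narrowest gap of the 9 genes (log2 fold change −0.24, SE 0.06, adjusted p = 0.00114).

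The remaining members remove deoxynucleotides. DCTPP1 (ENSG00000179958) hydrolyses dCTP and modified cytosine deoxynucleotides. It measured 100.8 and 106.5 CPM in shControl and 67.2 and 67.0 CPM in shNUP153 (log2 fold change −0.63, SE 0.06, edgeR adjusted p = 4.01e-11), with no overlap of the groups. SAMHD1 (ENSG00000101347) degrades deoxynucleoside triphosphates, restricts viruses in non-cycling cells and is interferon-inducible in several cell types. It measured 165.2 and 178.0 CPM in shControl and 77.4 and 71.4 CPM in shNUP153. Even its closest libraries differed by 1.09 on the log2 scale, against 0.11 within shControl and 0.12 within shNUP153 (log2 fold change −1.21, SE 0.06, adjusted p = 1.00e-18). The authors' deposited table, whose log2 ratios carry no library scaling, lists all 9 genes below 0, from −0.22 for DTYMK to −1.18 for SAMHD1.

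Set against all tested genes, SAMHD1 had a lower log2 fold change than all but 92 of 16817 genes and RRM2 than all but 214. DUT was passed by 540 and DCTPP1 by 649. The others stood nearer the bulk, with 1169 genes below TYMS, 1278 below RRM1, 1499 below TK1, 2148 below RRM2B and 3264 below DTYMK. All 9 were well-measured genes, with means over the 4 libraries between 48.4 and 347.1 CPM. Of the 4264 tested genes in that range of abundance, 31.3% were called lower and 18.5% higher, with a median log2 fold change of −0.04, so genes of this abundance were called lower more often than tested genes as a whole.

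**Figure D3:**
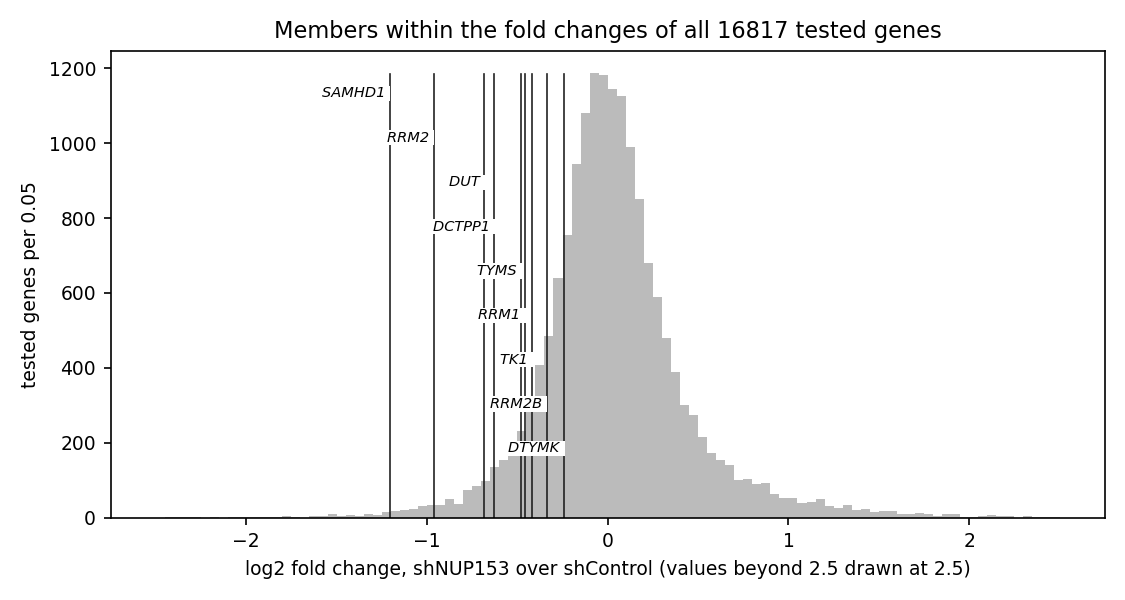
Histogram of log2 fold changes of the 16817 tested genes (x axis, bins of 0.05; y axis, genes per bin) with vertical lines at the 9 members. All 9 lines lie left of 0, SAMHD1 at −1.21 and RRM2 at −0.96 in the sparse left tail and DTYMK at −0.24 nearest the centre.

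Levels of the members were compared with each other only per length, as CPM per kilobase of all exons that GENCODE 29 lists for the gene. That length counts every annotated exon and may differ from the length behind the authors' counts, so the order rests on it. In shControl TK1 was highest at 213 ± 3.60 CPM per kilobase (SD, n = 2). DUT (66.6 ± 0.698) and DCTPP1 (65.5 ± 2.54) followed and did not differ beyond their spread. Next came RRM2 (45.6 ± 1.07), RRM1 (43.2 ± 0.0782), DTYMK (37.0 ± 2.32), TYMS (22.8 ± 0.267), SAMHD1 (15.2 ± 0.809) and RRM2B (10.1 ± 0.268). In shNUP153 TK1 was again highest, at 160 ± 4.69 CPM per kilobase, with DCTPP1 (42.4 ± 0.0852) and DUT (41.5 ± 1.07) again within their spread. RRM2 (23.4 ± 1.19) stood below RRM1 (31.5 ± 0.0298) and DTYMK (31.3 ± 0.110) there, and SAMHD1 (6.61 ± 0.378) below RRM2B (8.02 ± 0.140), both the reverse of their order in shControl.

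Other transcripts share sequence or position with some members. In GENCODE 29, exons of TYMS overlap those of ENOSF1 on the opposite strand by 967 bases and of TYMSOS by 183. ENOSF1 also fell, from 45.6 ± 0.459 to 39.9 ± 0.677 CPM (SD, n = 2; log2 fold change −0.19, edgeR adjusted p = 0.0272), a call lost with total-count and upper-quartile scaling, with DESeq2, and on leaving out either shNUP153 library or shControl replicate 2 (adjusted p from 0.0609 to 0.206). TYMSOS was at 3.31 ± 0.864 and 2.22 ± 0.140 CPM and did not pass (log2 fold change −0.56, adjusted p = 0.0548). It passed with no abundance trend (0.0498), with no low-count filter (0.0434), with a replicate block (0.0452) and without shControl replicate 2 (−0.83, adjusted p = 0.00644), and was at −0.29 (adjusted p = 0.475) without shControl replicate 1. RRM2 overlaps the protein-coding gene AC007240.1 on the same strand by 1077 bases. AC007240.1 had no row in the count table, so its level is not known. No source used here says if counting used strand, so reads of TYMS and these partners cannot be told apart in the shared stretches. SAMHD1 overlaps TLDC2 by 1159 bases, with 33 and 39 TLDC2 counts in shControl and 12 and 4 in shNUP153, against 1694 to 4747 counts of SAMHD1. DCTPP1 overlaps ZNF771 by 666 bases (229 to 273 counts), DUT overlaps AC023355.1 by 533 (29 to 51 counts) and RRM1 overlaps RRM1-AS1 by 63 (0 to 3 counts). The 13 rows named as pseudogenes of RRM2, DUT or TYMS held at most 7 counts in a library, in DUTP2, and 8 of them were at 0 throughout. Reads that such copies share with their parent gene could have been dropped or split by the counting.

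The rest of deoxynucleotide metabolism moved less uniformly. Of 36 further genes of the pathway, all tested, 13 fell, 4 rose and 19 did not pass, with a median log2 fold change of −0.13. Over all tested genes 17.4% were called lower and 15.0% higher, and among those in the abundance range of the members 31.3% and 18.5%. Not all 36 genes lie in that range. Among the thymidylate cycle and deaminase genes 4 of 7 fell, all of them folate enzymes. MTHFD1, which interconverts folate one-carbon units, went from 301 ± 5.49 to 208 ± 5.06 CPM (SD, n = 2; log2 fold change −0.53, edgeR adjusted p = 2.01e-11). The serine hydroxymethyltransferase genes SHMT1 (−0.61, adjusted p = 7.90e-09) and SHMT2 (−0.31, adjusted p = 1.93e-06) fell as well. Both transfer a one-carbon unit from serine to folate, from which thymidylate synthase draws the methyl group of thymidylate.

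Salvage and transport genes were mixed. Among the nucleoside kinases DCK, deoxycytidine kinase, fell by 0.24 on the log2 scale (edgeR adjusted p = 0.00446; 0.139 without shNUP153 replicate 1). The mitochondrial kinase genes TK2 (−0.05, adjusted p = 0.683) and DGUOK (−0.09, adjusted p = 0.400) did not pass. TK2 turned to 0.02 with total-count scaling. SLC29A1, an equilibrative nucleoside transporter, fell by 0.36 (adjusted p = 5.17e-06), 1 of 4 transporter genes to pass. NT5E, the ecto-5′-nucleotidase CD73, fell from 369 ± 6.79 to 267 ± 10.8 CPM (SD, n = 2; −0.47, adjusted p = 3.64e-10).

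The largest fall of the list was that of CMPK2, a mitochondrial nucleotide kinase known as interferon-induced, from 60.0 ± 7.51 to 16.2 ± 0.197 CPM (SD, n = 2; log2 fold change −1.89, edgeR adjusted p = 4.37e-19). The thymidine phosphorylase gene TYMP, also interferon-inducible, was low and fell (5.46 ± 1.35 to 2.87 ± 0.361 CPM, −0.94, adjusted p = 0.000235). In the other direction, UPP1, uridine phosphorylase, rose from 248 ± 7.03 to 335 ± 3.30 CPM (0.43, adjusted p = 1.94e-09). The nucleotide kinase genes AK3 (0.30, adjusted p = 0.00207), NME4 (0.25, adjusted p = 0.00661) and GUK1 (0.13, adjusted p = 0.0287) rose by less. The AK3 call was lost without shNUP153 replicate 1 (adjusted p = 0.123), that of NME4 without shControl replicate 2 (0.0605) or shNUP153 replicate 2 (0.206), and that of GUK1 with DESeq2 (0.0696) and without shControl replicate 1 (0.293), shNUP153 replicate 1 (0.300) or shNUP153 replicate 2 (0.114).

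**Figure D4:**
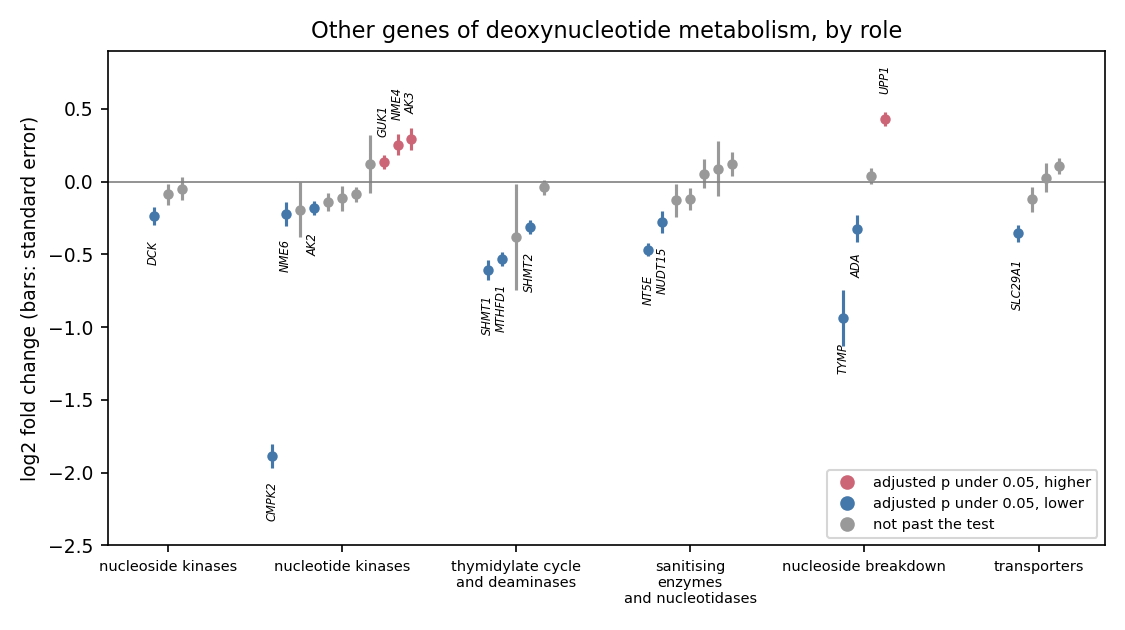
Log2 fold change (y axis, bars standard error) of 34 of the 36 further genes of deoxynucleotide metabolism, grouped by role; blue genes fell, red genes rose and grey genes did not pass the test. CMPK2 lies far below the rest at −1.89, the folate enzymes shown lie between −0.61 and −0.31, and UPP1 is highest at 0.43.

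Genes of S phase fell beside the members. All 7 of MCM2 to MCM7, the replicative helicase, and PCNA, the sliding clamp, were called lower, with log2 fold changes from −0.68 to −0.55. Over all tested genes 17.4% were called lower, and this list was chosen with earlier results of these data known. The summed level of the 7 genes went from 3440 and 3620 CPM in shControl to 2290 and 2330 CPM in shNUP153. DUT and DCTPP1 lay within that range of log2 fold changes, RRM2 and SAMHD1 below it and the other 5 members above it. Whether members differ from the helicase genes was not tested. In bulk RNA, fewer cells in S phase and less RNA per cell cannot be told apart, and the share of cells in S phase was not measured.

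Regulators of the members moved in both directions, 9 lower and 4 higher of 20, against 17.4% lower and 15.0% higher of all tested genes. SKP2, the substrate receptor of a ubiquitin ligase that acts on cell-cycle inhibitors, went from 118 ± 2.15 to 78.9 ± 0.862 CPM (SD, n = 2; log2 fold change −0.59, edgeR adjusted p = 6.36e-11). CCNF, whose product cyclin F marks RRM2 for degradation, was at −0.12 and did not pass (adjusted p = 0.101). Nor did FZR1, a further ubiquitin ligase receptor of the list (−0.008, adjusted p = 0.944). Of the E2F genes, E2F8 (−0.72, adjusted p = 2.47e-07) and E2F2 (−0.46, adjusted p = 4.16e-06) fell, and E2F6 (0.53, adjusted p = 0.000184) and E2F7 (0.30, adjusted p = 0.000224) rose. The other 4 E2F genes tested, E2F1 among them, did not pass. The RB family genes RB1 (−0.31, adjusted p = 5.66e-05), RBL1 (−0.22, adjusted p = 0.00306) and RBL2 (−0.22, adjusted p = 0.00273) fell. E2F1 was at −0.12 (adjusted p = 0.111) and passed without shControl replicate 1 (−0.21, adjusted p = 0.00189). CDKN1A, the p53-inducible cell-cycle inhibitor p21, rose from 140 ± 1.44 to 276 ± 10.4 CPM (0.97, adjusted p = 7.53e-18), opposite in direction to RRM2B, which p53 also induces. All 3 genes of kinase complexes that phosphorylate SAMHD1 fell, CCNA2 (−0.39, adjusted p = 4.04e-07), CDK2 (−0.32, adjusted p = 4.53e-05) and CDK1 (−0.19, adjusted p = 0.00318). CDK1 missed the threshold without shNUP153 replicate 1 (0.0674) or shNUP153 replicate 2 (0.0677).

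Interferon-stimulated genes also fell beside SAMHD1. All 11 genes of a list of them were called lower, with a median log2 fold change of −1.04 and a range from −1.80 to −0.31. The share called lower over all tested genes was 17.4%, and this list too was chosen with earlier results known. The summed level of the 11 genes went from 3130 and 3420 CPM in shControl to 1490 and 1360 CPM in shNUP153. SAMHD1, at −1.21, lay within the range of these genes, IFIT1 (−1.80), OAS2 (−1.74), IFIT3 (−1.63) and MX1 (−1.53) being lower. The part of the interferon genes in the fall of SAMHD1 was not tested.

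**Figure D5:**
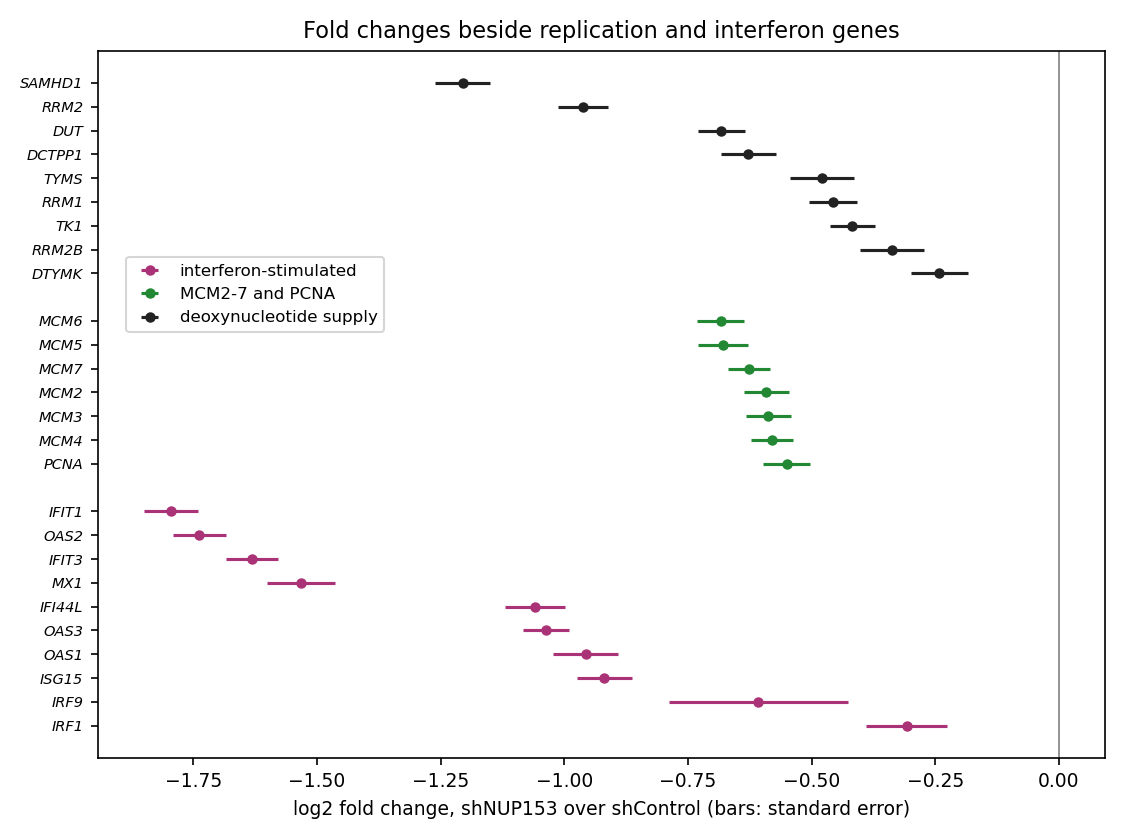
Log2 fold change of shNUP153 over shControl (x axis, bars standard error) for the 9 deoxynucleotide genes (black), MCM2 to MCM7 and PCNA (green) and 10 of the 11 interferon-stimulated genes (purple). The green genes form a narrow band from −0.68 to −0.55, while the members spread from −1.21 to −0.24.

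Likeness of pattern was measured as the root mean square distance between log2 CPM values, each gene centred on its own mean over the 4 libraries, among 11028 other tested genes with a mean of 5 CPM or more. Among the 4 genes closest to RRM2 were KREMEN1 (distance 0.0195), which codes for a receptor of the Wnt inhibitor Dickkopf, NUCKS1 (0.0216), which codes for a chromatin-associated protein, and the ADP/ATP carrier gene SLC25A5 (0.0274). None of these 3 codes for a deoxynucleotide enzyme, and 62 genes lay within a distance of 0.1 of RRM2. NUCKS1, for example, measured 652 and 651 CPM in shControl and 325 and 354 CPM in shNUP153. The closest to SAMHD1 were TNFSF10 (0.0156), HERC6 (0.0261), ETV7 (0.0349) and AC116407.2 (0.0455), with 21 genes within 0.1. TNFSF10, HERC6 and ETV7 are known as interferon-inducible. TNFSF10, the gene of the death ligand TRAIL, measured 51.4 and 53.9 CPM in shControl and 23.8 and 21.7 CPM in shNUP153. With 4 libraries in 2 groups this likeness rests mostly on the size of the difference between the groups.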

How the data were processed

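RNA was sequenced from 4 TE5 libraries, 2 per group. The deposited table, named FPKM, holds whole-number counts per Ensembl gene whose totals differ between libraries, and they were treated as raw counts. Per the submitters' processing notes, kallisto, DESeq2, Bowtie2, deepTools and hg19 were used. The sources used here give neither their roles nor the annotation or strand use. The authors' log2 ratio per gene entered no test, nor did their p-value column.

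Counts were filtered with filterByExpr (minimum count 10, minimum total 15) and tested with edgeR 4.0.16 in R 4.3.3 (TMM scaling, quasi-likelihood, two-sided, Benjamini-Hochberg over all tested genes, threshold 0.05). Standard errors were derived from the F statistic. CPM means are given ± SD with n = 2. The procedure was tested on simulated data. Replicates differed by more than sampling noise (chi-square per gene 3.57 in shControl and 3.09 in shNUP153). Alternatives were other scalings, DESeq2 1.42.0, limma 3.58.1 (voom), other filters, no abundance trend, a replicate block and leaving out each library.

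The members and lists were chosen with earlier results of these data known. Named genes were all members, the 5 pathway genes with the smallest p, pathway genes that rose, up to 4 per other list by p, overlapping genes and nearest patterns. SHMT1, SHMT2, TYMP, SLC29A1, DCK, TK2, DGUOK, CCNF, E2F1, E2F2, E2F6, E2F7, KRT6A, KRT17, SOX2, CDK1 and CDK2 were chosen after their values were seen. So were FZR1, RB1, RBL1 and RBL2, which were not followed under the alternatives. A few genes that the rules would name are left out. Gene overlaps and lengths came from GENCODE 29 (GRCh38), which listed all 56657 gene IDs, and promoters from RefSeq.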

Additional observations from a re-analysis of the deposited data

How the results depend on the processing

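All 9 members stayed lower and past the threshold under each of 13 alternatives, 117 values in all. The highest adjusted p was 0.0433, for DTYMK without shNUP153 replicate 2. The mean log2 difference in the RRM2B to RRM2 ratio ranged from 0.59 to 0.66 with a library left out, was 0.63 with a replicate block and 0.63 with 10 added to each count. The count of all called genes was 5448, against 3549 with DESeq2 and 3072 to 5201 with a library left out (3072 without shNUP153 replicate 1, 3342 without shNUP153 replicate 2). Pathway genes called higher numbered 2 to 4 with a library left out, 2 without either shNUP153 library. TK2 turned from −0.05 to 0.015 with total-count scaling and ranged from −0.11 to 9e-04 with an shNUP153 library left out, without passing the test. Over all tested genes, deviations of replicate 1 from the group mean had a correlation of −0.007 between the groups. This does not settle if replicate numbers mark shared cultures. The replicate block gave 5465 called genes and 9 members lower. With 2 libraries per group, small differences such as that of DTYMK are measured least firmly.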
